A study of Mus musculus with 2 samples.

Results

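The genes described here encode the nuclear subunits of the 5 complexes of mitochondrial oxidative phosphorylation, together with the complex I assembly factors that share their names. They were picked by symbol alone, as every gene whose name begins with Ndufa, Ndufb, Ndufc, Ndufs, Ndufv, Uqcr or Atp5, the genes Sdha to Sdhd, and the Cox genes numbered 4 to 8. This gave 92 genes of the 22911 genes that could be named on the array, read by 114 probes on 123 spots. Complex I had 36 subunit genes and 8 assembly factor genes, complex II had 4, complex III had 8, complex IV had 19 and complex V had 17. Ndufa4 and Ndufa4l2 were counted with complex IV, in which the Ndufa4 protein is now placed. Of 115 symbols of this form in the RefSeq gene table, 23 had no matched probe, 19 of them pseudogenes and 4 protein-coding genes (Cox5b, Ndufb1, Ndufb4b and Ndufb4c).

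The cultured cells were LKS+ cells of mouse bone marrow (BM), which lack lineage markers, carry Kit and Sca-1, and comprise the hematopoietic stem and progenitor cells (HSPCs). They came from wild-type mice whose strain is not given for these cultures, were propagated for 2 days in serum-free medium with stem cell factor, IL-6 and IL-3, and then received extracellular vesicles (EVs) at 150 μg/ml for 24 h. One culture received EVs from the spleens of mice with chronic myelogenous leukemia (CML EVs), a model made by transplanting LKS+ cells transduced with a BCR-ABL retrovirus, and the other received EVs from normal mouse spleens (control EVs). By the study's methods the CML mice had been irradiated, which the labels do not mention, so leukemia and irradiation of the EV donors cannot be told apart. Each condition was measured on 1 one-colour array, so no value below has a replicate check, no test across samples was possible, and differences are given as values.

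Oxidative phosphorylation passes electrons from NADH and succinate along complexes I to IV to oxygen. Complexes I, III and IV pump protons out of the mitochondrial matrix, and complex V, the ATP synthase, makes ATP as protons flow back. Quiescent hematopoietic stem cells are known for relying largely on glycolysis, and progenitors that begin to divide and differentiate draw more on respiration.

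On both arrays 53.3% (CML EVs) and 54.4% (control EVs) of the 59305 non-control spots were well above background, the software's own flag for a spot brighter than its surroundings, and no spot was saturated. Signals were scaled to a common trimmed mean on each array, and a log2 ratio is the log2 of the CML EV signal over the control EV signal. Stem and progenitor markers were present, except Mecom, which was not well above background on either array. Of the 11 that were measured, 1 (Ly6a, 0.36) was higher and 10 were lower with CML EVs, with a median log2 ratio of −0.18 and a summed signal of 41054 with CML EVs, against 45575 with control EVs. Neutrophil markers were higher in 9 of 10, with a median of 0.77 and a summed signal of 615636 with CML EVs and 473488 with control EVs. All 8 megakaryocyte markers were lower, with a median of −0.29 and sums of 69321 with CML EVs and 76444 with control EVs. Erythroid markers were higher in 3 of 5 (median 0.19), macrophage markers in 3 of 5 (0.02) and T cell markers in 1 of 3 (−0.07). The erythroid markers went both ways, with Klf1 (0.23), Hba-a1 (0.23) and Hba-a2 (0.19) higher and Hbb-bt (−0.70) and Epor (−0.06) lower. Of the B cell markers only Cd79b was measured on both arrays, with 750.7 with CML EVs and 734.3 with control EVs (0.03), while Cd79a and Ms4a1 were not above background on either. The part of these marker differences in the values below was not tested, and in RNA from a whole culture fewer cells of a type and less RNA per cell cannot be told apart.

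The oxidative phosphorylation genes were abundantly read and differed little between the cultures. Of the 92 genes, 88 were well above background on both arrays, none on 1 array only, and 4 (Cox7b2, Cox8b, Cox8c and Ndufa4l2) on neither. Among the 88 measured genes, 67 had a higher signal with CML EVs and 21 a lower one, with a median log2 ratio of 0.05, or a signal 3.52% higher. Over all 13411 genes measured in the same way the median was 0.01 and 51.9% were higher with CML EVs. The ratios of the 88 genes had an SD of 0.12 and lay between −0.76 (Cox6a2) and 0.24 (Ndufaf3). None of the 88 was at least 25% higher with CML EVs, where 5.01% of all genes were, and 1 (Cox6a2) was at least 20% lower, the same fold in the other direction, where 5.25% of all genes were. Among genes brighter than the median gene these shares were 2.3% and 0.522%, and none of the 81 oxidative phosphorylation genes of that brightness, which leave out Cox6a2, was past either limit. At 1.1-fold, 11 of the 88 were higher and 4 lower, where 17.3% and 17.2% of all genes and 14.2% and 6.34% of the brighter genes were. Of the 11 and 4 genes, Ndufaf3, Ndufaf5, Ndufaf8, Cox4i2 and Cox6a2 were dimmer than the median gene. The shares of the brighter genes do not apply to them.

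The excess of genes above 0 stood beside high signal, which went with ratios above 0 across the array. Among the genes brighter than the median gene, 58.9% were higher with CML EVs, and 81 of the 88 oxidative phosphorylation genes were that bright. Among genes with a mean log2 signal of at least 13, a level set after the values were seen, 63.6% were higher and the median log2 ratio was 0.03. The 63 oxidative phosphorylation genes at that level had a median of 0.05, and 51 of them (81.0%) were higher. When the trend of ratio with signal was removed by a lowess fit, also chosen after the values were seen, 58.0% of the 88 genes were higher, against 50.6% of all genes, and their median was 0.02. Quantile normalization gave 61.4%, against 50.1% of all genes, and scaling each array to its median spot gave 92.0%, against 71.1%.

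**Figure D1:**
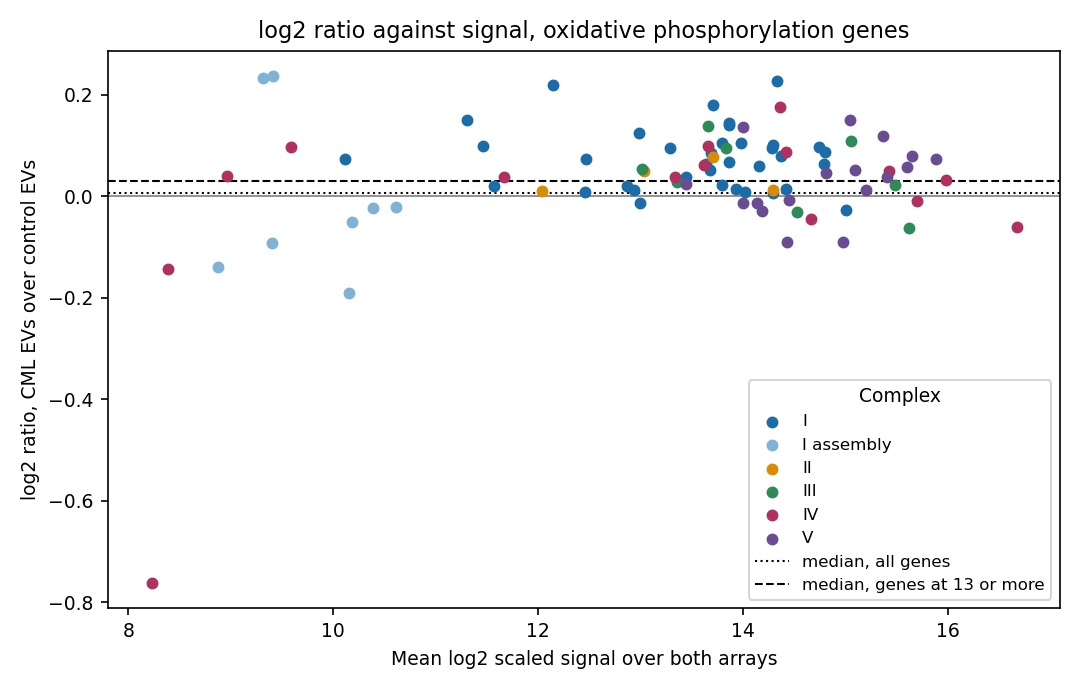
The ratio of the CML EV to the control EV signal on the log2 scale (vertical axis) is plotted against the mean log2 scaled signal of both arrays (horizontal axis) for the 88 measured genes, coloured by complex. Most points lie right of 12 and slightly above 0, the horizontal lines mark the medians of all genes (0.01) and of genes at a log2 signal of 13 or more (0.03), and Cox6a2 lies alone at −0.76.

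Technical spread was of the same size as many of these differences. Atp5g2, which encodes a c subunit of the ATP synthase rotor ring, was read by a probe printed on 10 spots of either array. Its scaled signal had a lowest value of 47273, a median of 50694 and a highest value of 54520 with CML EVs, against 46081, 48683 and 51401 with control EVs. The spot values overlapped, and the log2 ratio between the means over 10 spots was 0.06. The SD of a ratio between single spots was 0.09, which is wider than the error of those means. Over 272 probes printed repeatedly and brighter than a log2 signal of 8, the median spot SD of the log2 ratio was 0.05. Ratios smaller than that were found in 38 of the 88 oxidative phosphorylation genes. The same held for 4131 of all 13411 genes and 2666 of the 6705 genes brighter than the median gene. The error that Feature Extraction attaches to a ratio was 0.20 in the median gene. It lay between 0.204 and 0.205 in all 88, so here it acted as nearly the same limit for each gene. Only Ndufaf3, Ndufaf5, Ndufa2, Ndufs4 and Cox6a2 exceeded it, 5 of 88. Among all genes 18.8% exceeded the error attached to them, and 8.78% of genes brighter than the median gene did. Of these 5, only Ndufa2 and Ndufs4 were among the 81 oxidative phosphorylation genes brighter than the median gene. Spots of 1 array measure printing and scanning only and say nothing of the spread between cultures.

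The promoters of these genes are shown because many nuclear respiratory genes are known targets of the same activators, nuclear respiratory factor 1 (NRF1) and the ETS-family factor GABP. Of the 88 measured genes, 73 matched by symbol a promoter window in the RefSeq table (GRCm38.p6), which covers 250 bases before and 50 bases after the gene's start. The NRF1 core TGCGCA, searched on both strands (it reads alike on either), stood in 24.7% of the 73 genes. It stood in 8.79% of all 27025 genes with a window, whether measured here or not. All 73 were measured, so this comparison and the next ones are between unlike sets of genes. The ETS word CCGGAAG on either strand stood in 26.0% of the 73 genes and 9.93% of all genes, the SP1 word GGGCGG in 46.6% and 38.2%, and an NRF1 core or an ETS word in 45.2% and 17.1%. For each complex, the window of the gene with the highest log2 ratio that holds an NRF1 core or an ETS word is printed on the gene's strand, 5′ to 3′, with those words in capitals. The genes are Ndufs5 (chr4:123718137-123718436, minus strand), Sdhd (chr9:50603800-50604099, minus strand), Uqcrc1 (chr9:108936398-108936697, plus strand), Cox6b1 (chr7:30626065-30626364, minus strand) and Atp5md (chr19:47090598-47090897, minus strand).
Ndufs5: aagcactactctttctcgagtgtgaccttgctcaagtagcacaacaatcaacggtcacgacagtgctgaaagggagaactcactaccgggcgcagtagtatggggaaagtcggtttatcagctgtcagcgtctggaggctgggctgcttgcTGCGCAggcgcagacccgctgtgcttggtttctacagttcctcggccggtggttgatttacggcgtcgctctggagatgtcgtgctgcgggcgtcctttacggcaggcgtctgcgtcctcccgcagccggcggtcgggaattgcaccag
Sdhd: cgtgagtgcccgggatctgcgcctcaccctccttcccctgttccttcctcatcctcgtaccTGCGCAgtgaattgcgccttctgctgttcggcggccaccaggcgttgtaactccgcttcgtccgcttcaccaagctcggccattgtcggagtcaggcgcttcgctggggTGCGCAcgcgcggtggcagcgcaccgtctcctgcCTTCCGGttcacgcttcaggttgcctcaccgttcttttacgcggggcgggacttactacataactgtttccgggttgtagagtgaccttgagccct
Uqcrc1: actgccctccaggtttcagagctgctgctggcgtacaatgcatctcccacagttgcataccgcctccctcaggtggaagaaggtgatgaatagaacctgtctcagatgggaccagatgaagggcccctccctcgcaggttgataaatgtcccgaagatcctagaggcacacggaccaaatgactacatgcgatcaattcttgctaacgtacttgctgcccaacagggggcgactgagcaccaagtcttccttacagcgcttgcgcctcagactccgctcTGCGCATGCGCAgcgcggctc
Cox6b1: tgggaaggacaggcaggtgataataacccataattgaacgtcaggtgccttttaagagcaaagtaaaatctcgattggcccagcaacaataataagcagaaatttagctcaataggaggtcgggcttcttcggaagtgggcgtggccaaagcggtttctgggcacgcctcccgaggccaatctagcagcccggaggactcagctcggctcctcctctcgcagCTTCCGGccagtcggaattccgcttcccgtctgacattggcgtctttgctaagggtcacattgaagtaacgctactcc
Atp5md: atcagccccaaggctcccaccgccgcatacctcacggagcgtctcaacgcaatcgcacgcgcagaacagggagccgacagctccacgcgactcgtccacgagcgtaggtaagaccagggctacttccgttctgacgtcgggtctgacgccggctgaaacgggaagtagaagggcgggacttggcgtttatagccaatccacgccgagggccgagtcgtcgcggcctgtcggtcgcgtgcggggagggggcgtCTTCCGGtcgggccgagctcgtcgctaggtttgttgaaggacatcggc

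The Ndufs5 window held 1 NRF1 core, beginning 99 bases before the start, and Sdhd held 2, beginning 189 and 80 bases before it, with an ETS word as its reverse complement 46 bases before. Uqcrc1 carried 2 adjoining NRF1 cores that begin at bases 30 and 36 after the start. The ETS word, as its reverse complement, began 28 bases before the start in Cox6b1 and at the base 3 after it in Atp5md. The ratios of genes with and without a word overlapped. The median log2 ratio was 0.07 in the 18 genes with an NRF1 core and 0.05 in the 55 without, 0.03 in the 19 genes with an ETS word and 0.06 in the 54 without, and 0.05 in the 34 genes with an SP1 word and 0.05 in the 39 without. A word in a window is a match of letters only.

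Complex I, the NADH:ubiquinone oxidoreductase, had nearly all its genes slightly above 0. Of its 36 measured subunit genes, 34 were higher with CML EVs, with a median log2 ratio of 0.07 (5.19% higher) and a range of −0.03 to 0.23. No subunit was as much as 25% higher or 20% lower.

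The 7 measured core subunits, which carry the flavin and the iron-sulfur clusters that lead electrons to ubiquinone, all had ratios above 0, with a median of 0.05. This split into core and accessory subunits, like the further splits of complexes III, IV and V, was drawn up from textbook structure after the values had been seen. Ndufv1, which binds the flavin and takes up electrons from NADH, had a scaled signal of 14275 with CML EVs and 14051 with control EVs (log2 ratio 0.02), and its second probe had a ratio of −0.05. Its iron-sulfur partner Ndufv2 gave 10341 with CML EVs and 9679 with control EVs (0.10). Ndufs1, the largest subunit, gave 7509 with CML EVs and 7401 with control EVs (0.02). These 3 genes form the NADH-binding tip of the complex, and their ratios were at or below 0.10. In the arm that reaches ubiquinone, Ndufs7, which holds the last iron-sulfur cluster, gave 15638 with CML EVs and 14154 with control EVs (0.14). Ndufs8 gave 13357 with CML EVs and 12881 with control EVs (0.05), and Ndufs3 gave 11317 with CML EVs and 11024 with control EVs (0.04).

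Of the accessory subunits, which surround the core, 27 of 29 were above 0. The highest ratio belonged to Ndufa2, at 22305 with CML EVs and 19058 with control EVs (0.23), followed by Ndufs4, whose loss causes a Leigh-like encephalopathy in mice, at 4900 with CML EVs and 4212 with control EVs (0.22). These were the only complex I subunits beyond their Feature Extraction error of 0.20. Ndufs5, a small subunit on the intermembrane side, gave 14264 with CML EVs and 12601 with control EVs (0.18). The membrane subunit Ndufa11 gave 2675 with CML EVs and 2411 with control EVs (0.15), and Ndufc1 gave 15584 with CML EVs and 14142 with control EVs (0.14). The Ndufc, Ndufs and Ndufv accessory genes were all above 0, 6 of 6, with a median of 0.12. Of the Ndufb genes, which sit in the membrane arm, 9 of 10 were above 0 with a median of 0.08, and of the Ndufa genes with Ndufab1, the mitochondrial acyl carrier protein, 12 of 13 with a median of 0.06. The lowest ratios were those of Ndufa13, also known as GRIM-19, at 32580 with CML EVs and 33189 with control EVs (−0.03), and Ndufb2, at 8115 with CML EVs and 8194 with control EVs (−0.01), both smaller than the spot SD.

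The 8 Ndufaf genes encode chaperones and modifying enzymes that build complex I and are absent from the finished complex. Only 2 of them were above 0 and the median was −0.04, and all 8 were dimmer than a log2 signal of 13. Ndufaf3 gave 739.9 with CML EVs and 628.0 with control EVs (0.24). Its early-assembly partner Ndufaf4 gave 1069 with CML EVs and 1221 with control EVs (−0.19), so this pair differed in direction. Ndufaf5, which hydroxylates Ndufs7, gave 690.7 with CML EVs and 588.0 with control EVs (0.23), but its other probe had a ratio of −0.14. Ndufaf8, the partner of Ndufaf5, gave 446.3 with CML EVs and 491.9 with control EVs (−0.14), and Ndufaf6 gave 657.2 with CML EVs and 700.9 with control EVs (−0.09). Ndufaf1, Ndufaf2 and Ndufaf7 had ratios of −0.05, −0.02 and −0.02. The subunits of complex I and its assembly factors thus had medians on opposite sides of 0, and this difference was not tested. Scaling each array to its median spot added the same amount to every gene, which put both medians above 0, at 0.14 for the subunits and 0.033 for the assembly factors, and left the distance between them as it was.

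**Figure D2:**
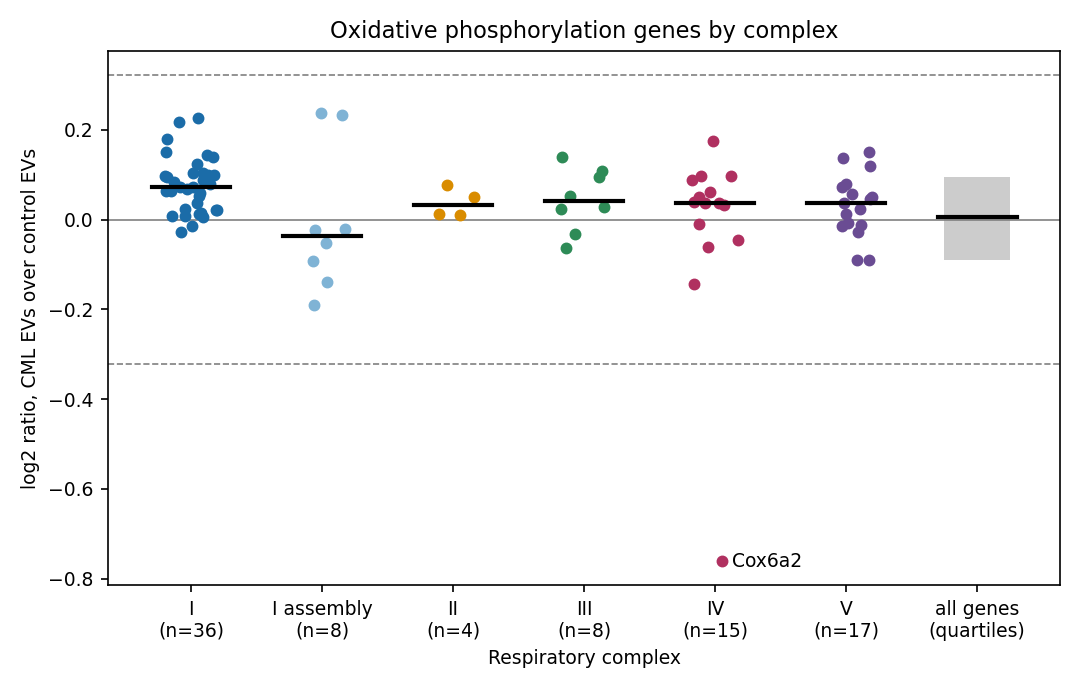
Each point is 1 measured gene, with the ratio of its CML EV to its control EV signal on the vertical axis (log2) and its complex on the horizontal axis; black lines are medians, dashed lines mark 25% higher and 20% lower, and the grey box spans the quartiles of all 13411 genes. Complex I sits mostly above 0 (34 of 36 genes), its assembly factors mostly below (6 of 8), and Cox6a2 in complex IV is the sole point beyond the dashed lines.

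Complex II, succinate dehydrogenase, links the TCA cycle to ubiquinone and is the only one encoded wholly in the nucleus. Its 4 genes were all above 0, as were 51.9% of all genes, with a median log2 ratio of 0.03, and 3 of the 4 were within the spot SD. After quantile normalization Sdhb (−0.017) and Sdhc (−0.015) were below 0, and Sdha (0.023) and Sdhd (0.038) above it. Removing the lowess trend gave −0.019 for Sdhb, −0.018 for Sdhc, 0.014 for Sdha and 0.040 for Sdhd, with a median of −0.0020. The flavin subunit Sdha gave 8516 with CML EVs and 8225 with control EVs (0.05), and its second probe had −0.07. The iron-sulfur subunit Sdhb gave 20175 with CML EVs and 19995 with control EVs (0.01), and its second probe had 0.15. Thus the 2 probes of either gene differed by more than the ratio itself. Of the membrane anchors, Sdhc gave 4233 with CML EVs and 4203 with control EVs (0.01), and Sdhd gave 13726 with CML EVs and 13007 with control EVs (0.08).

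Complex III, the cytochrome bc1 complex, hands electrons from ubiquinol to cytochrome c. Of its 8 genes 6 were above 0, with a median of 0.04. The core protein Uqcrc1 gave 13591 with CML EVs and 12349 with control EVs (0.14), and its fellow core protein Uqcrc2 gave 10556 with CML EVs and 10360 with control EVs (0.03). Uqcrfs1, the Rieske iron-sulfur protein that takes the first electron from ubiquinol, gave 8414 with CML EVs and 8109 with control EVs (0.05). The small subunits went either way. Uqcr10 gave 35278 with CML EVs and 32726 with control EVs (0.11), and Uqcrb gave 15109 with CML EVs and 14151 with control EVs (0.09). Uqcrq gave 49298 with CML EVs and 51490 with control EVs (−0.06), and Uqcr11 gave 23292 with CML EVs and 23808 with control EVs (−0.03). Uqcrh, the hinge protein between cytochrome c1 and cytochrome c, gave 46118 with CML EVs and 45399 with control EVs (0.02).

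Complex IV, cytochrome c oxidase, passes electrons to oxygen, and several of its nuclear subunits exist as a widely expressed form and a tissue-restricted form. Of the 19 genes 15 were measured and 10 of these were above 0, with a median of 0.04. Among the 11 widely expressed genes 8 were above 0. Cox4i1, the regulatory subunit, gave 52779 with CML EVs and 53143 with control EVs (−0.01), and Cox5a gave 44639 with CML EVs and 43127 with control EVs (0.05). The highest ratio was that of Cox7a2, at 22329 with CML EVs and 19768 with control EVs (0.18). Cox7b followed at 13327 with CML EVs and 12451 with control EVs (0.10). On the lower side were Cox6a1, at 101971 with CML EVs and 106381 with control EVs (−0.06), and Cox7a2l, which joins complexes III and IV into supercomplexes, at 25566 with CML EVs and 26378 with control EVs (−0.05).

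Cox6a2, the heart and skeletal muscle form of subunit VIa, had the lowest ratio of all 88 genes. Its scaled signal was 230.4 with CML EVs, against 390.4 with control EVs, a log2 ratio of −0.76 or 1.69-fold lower, beyond its Feature Extraction error of 0.20. It was read by 1 probe on 1 spot and gave −0.69 with median scaling and −0.60 after normexp background correction. The widely expressed form Cox6a1 had a ratio of −0.06, so the 2 forms differed in size of ratio. The other restricted forms that were measured did not stand apart in this way. Cox4i2, known from lung and induced by hypoxia, gave 318.6 with CML EVs and 351.8 with control EVs (−0.14). Cox7a1, the heart and muscle form, gave 797.1 with CML EVs and 745.7 with control EVs (0.10), and Cox6b2, known from testis, gave 505.9 with CML EVs and 492.2 with control EVs (0.04). Cox7b2, Cox8b, Cox8c and Ndufa4l2 were not well above background with either EV, so no fold is given for them. Over the 4 measured restricted forms the median was −0.05.

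**Figure D3:**
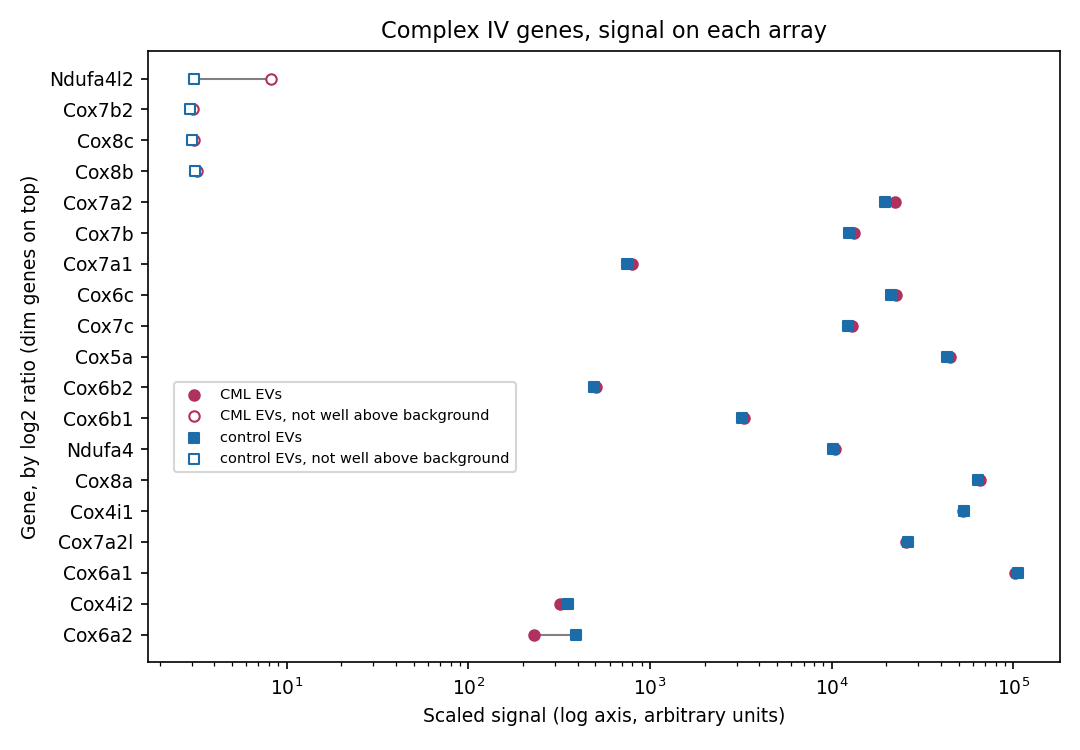
Scaled signal on a log axis (horizontal) is shown for the 19 complex IV genes (vertical), with circles for CML EVs, squares for control EVs and open symbols for genes not well above background. Levels are to be compared within a gene only; the symbols nearly coincide except for Cox6a2, at 230.4 with CML EVs and 390.4 with control EVs, and the dim Ndufa4l2.

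Complex V, the ATP synthase, had 11 of 17 genes above 0, with a median of 0.04 and a range of −0.09 to 0.15. In the catalytic F1 head all 5 genes were above 0, with a median of 0.07. Atp5c1, the central gamma stalk, gave 35603 with CML EVs and 32070 with control EVs (0.15). The alpha subunit gene Atp5a1 gave 52674 with CML EVs and 49895 with control EVs (0.08), and the catalytic beta subunit gene Atp5b gave 62020 with CML EVs and 58991 with control EVs (0.07). Other probes gave 0.01 for Atp5a1 and 0.02 and 0.20 for Atp5b. With the probes used, head and stalk lay within a narrow band above 0. The c subunit is encoded by 3 genes whose mature proteins are identical. Of these, Atp5g1 gave 35515 with CML EVs and 34282 with control EVs (0.05), Atp5g2 gave 50600 with CML EVs and 48612 with control EVs (0.06), and Atp5g3 gave 37704 with CML EVs and 37368 with control EVs (0.01).

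The peripheral stalk, which holds the head still against the rotor, had 1 of 4 genes above 0 and a median of −0.05. Atp5pb, the b subunit, gave 21338 with CML EVs and 22730 with control EVs (−0.09), and Atp5h, the d subunit, gave 31145 with CML EVs and 33150 with control EVs (−0.09). Other probes for both genes had ratios above 0, with 0.05 for Atp5pb and up to 0.06 for Atp5h, so the direction of this pair depended on the probe. Atp5o, the oligomycin sensitivity-conferring protein at the top of the stalk, gave 43912 with CML EVs and 42786 with control EVs (0.04). Of the small membrane subunits 2 of 5 were above 0. Atp5md, also called DAPIT, gave 17154 with CML EVs and 15611 with control EVs (0.14; 0.02 with its other probe), and Atp5l, the g subunit, gave 44113 with CML EVs and 40635 with control EVs (0.12). Atp5mpl gave 18414 with CML EVs and 18781 with control EVs (−0.03).

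Of the 88 measured genes, 19 had several probes above background on both arrays. All probes were above 0 for 11 of them, below 0 for 1 (Ndufaf7), and on both sides for 7. The median distance between a gene's lowest and highest probe was 0.06. Only for Ndufaf5 were the ratios of the probes at least 25% apart, with a distance of 0.37 on the log2 scale, and the next distance was 0.18 for Atp5b. Probes of a gene share the RNA of the culture and are not replicates of it. Transcripts of pseudogenes or near-identical copies, such as those of Ndufb4, could also bind a gene's probe, and probe sequences were not used here.

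**Figure D4:**
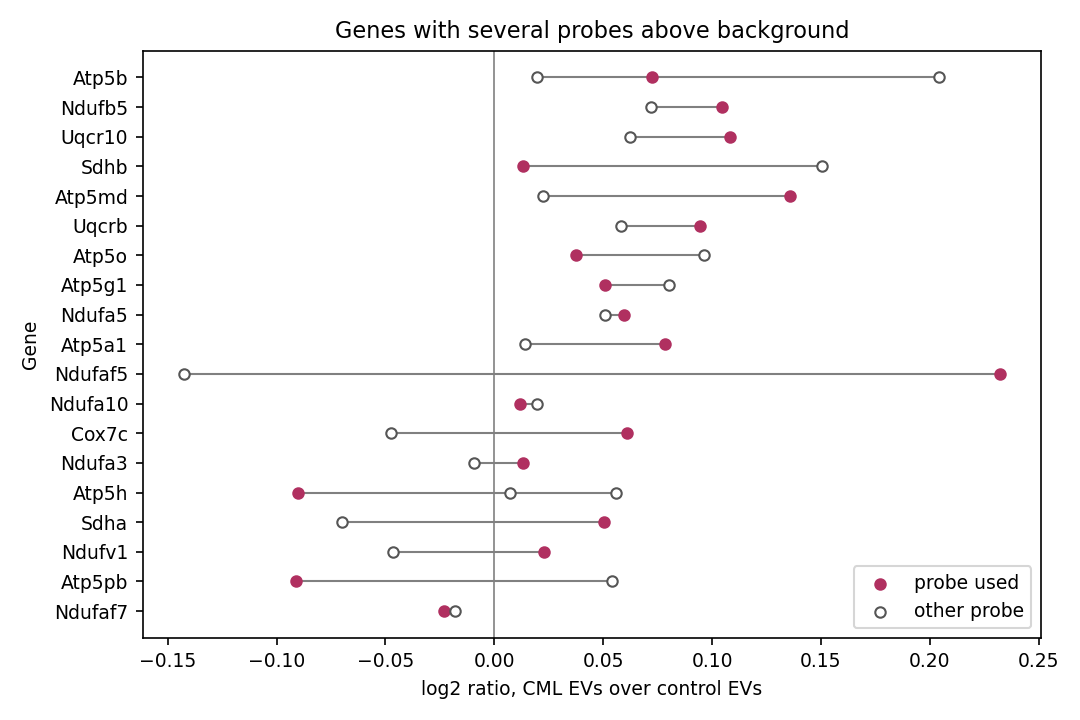
For the 19 genes with several probes above background, each point is the log2 ratio of 1 probe, CML EVs over control EVs (horizontal axis), with filled points for the probe used and open points for the others. The probes of 7 genes fall on both sides of 0, and those of Ndufaf5 are the farthest apart, at −0.14 and 0.23.

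Other genes of the same organelle were set beside these for context. Among 14 electron carrier genes and subunits named otherwise, 11 were above 0 with a median of 0.05. Cyc1, the cytochrome c1 of complex III, gave 12248 with CML EVs and 11529 with control EVs (0.09), Cycs, cytochrome c itself, gave 18302 with CML EVs and 18277 with control EVs (0.00), and Atpif1, the inhibitor of the ATP synthase, gave 56303 with CML EVs and 52803 with control EVs (0.09). The extremes were Coq7 (0.17) and Coq5 (−0.04), both of ubiquinone synthesis. Of 17 genes of pyruvate dehydrogenase and the TCA cycle 13 were above 0, with a median of 0.06, from Pdha1 (−0.03) to Sucla2 (0.16). Of 78 mitochondrial ribosomal protein genes, which serve the translation of the subunits encoded in mitochondrial DNA, 60 were above 0, with a median of 0.05, from Mrpl16 (−0.21) to Mrpl19 (0.27). These medians were close to that of the oxidative phosphorylation genes.

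The 40 assembly factor genes outside the Ndufaf family, of which 39 were measured (Lyrm7 was not above background), split evenly, with 21 above 0 and a median of 0.01. Coa5, of complex IV assembly, was highest (0.21), and the dim Pet117 was lowest (−0.42). Among 15 measured regulators of mitochondrial biogenesis 5 were above 0, with a median of −0.02. The activator Nrf1 gave 898.7 with CML EVs and 849.3 with control EVs (0.08), the mitochondrial DNA-packaging factor Tfam gave 2051 with CML EVs and 2132 with control EVs (−0.06), and the coactivator Ppargc1a was not above background on either array. Polg, the mitochondrial DNA polymerase, was highest (0.21) and Tfb2m lowest (−0.12). Of 5 measured genes for adenine nucleotide and phosphate carriers and uncoupling proteins 4 were above 0, with a median of 0.03, from Slc25a5 (−0.04) to Slc25a4 (0.14). The 13 subunits encoded in mitochondrial DNA had no probe matched by accession and were not analysed here.

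**Figure D5:**
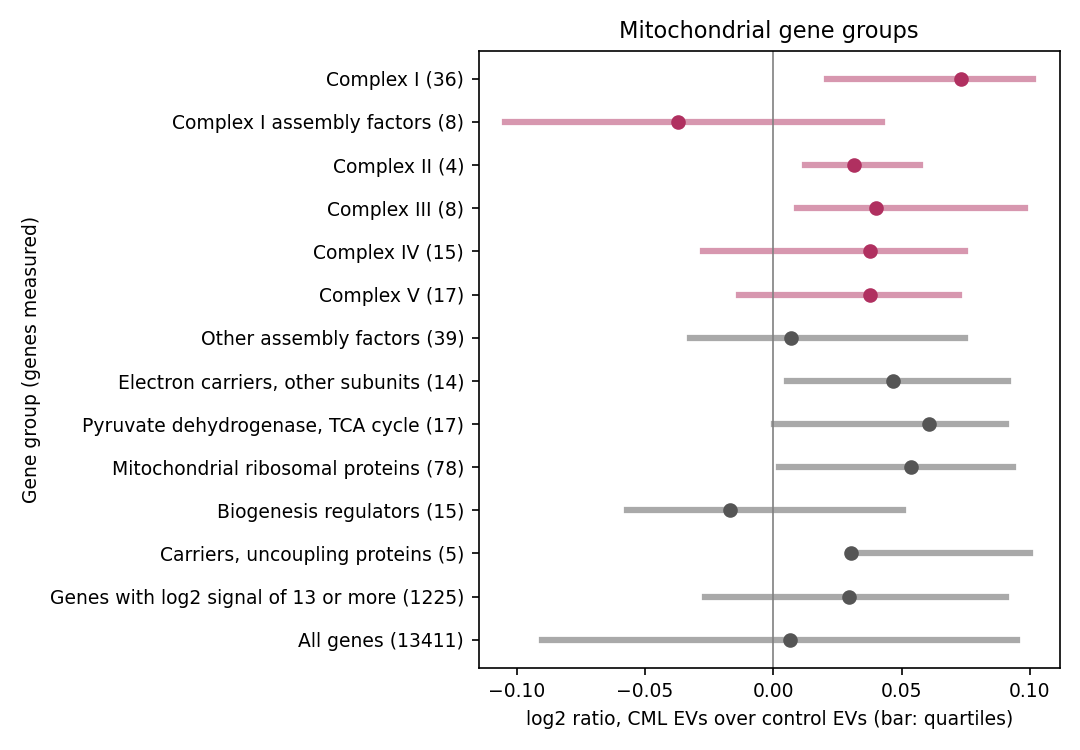
Points are medians and bars the quartiles of the log2 ratio, CML EVs over control EVs (horizontal axis), for each complex and for other mitochondrial gene groups (vertical axis), with bright genes (log2 signal from 13 upward) and all genes at the bottom. Of the groups drawn, complex I has the highest median (0.07) and its assembly factors the lowest (−0.04), and ribosomal proteins and the TCA cycle lie at 0.05 and 0.06, while all genes lie at 0.01.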

How the data were processed

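Total RNA of 1 culture per condition was labelled with Cy3 and hybridised to SurePrint G3 mouse arrays on the same slide. The scanner files deposited by the authors give spot by spot the processed intensity, from which Agilent Feature Extraction (version 12.0.3.1 in the submitters' processing notes) had already subtracted background, with flags for spots above background, outliers and saturation. The value table deposited by the authors held the same intensity after scaling and served as a check (largest relative deviation 4.96e-10).

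Each array was scaled, as in the study's methods, to a mean of 2500 over spots without the upper and lower 2% (factors 0.947 for CML EVs and 0.942 for control EVs). Control spots and outlier spots (88 with CML EVs and 95 with control EVs, none of them on the genes described) were dropped, log2 values of repeated spots were averaged, and a gene was represented by whichever probe had its highest value with CML EVs, also as in the methods. Probes were named by unversioned RefSeq accession (32994 of 56604 probes; the files used here hold no gene name column). A gene counted as measured when neither array had its probe at background. With 1 array per condition no p-value was computed, and the number of arrays limits the precision. A complex's named genes were its catalytic core, its 3 highest and 3 lowest ratios and the restricted isoforms; others were named after their values were seen. The values of some genes are not reported here. The genes and lists were chosen with earlier results of these data known. The summary steps were tested on simulated data. Python 3.11.15 (numpy 2.4.6, pandas 2.3.3, statsmodels 0.14.6, matplotlib 3.10.9) and, for normexp, R 4.3.3 with limma 3.58.1 were used.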

Additional observations from a re-analysis of the deposited data

How the results depend on the processing

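With 1 array per condition nothing could be tested or left out, so only the processing was varied. No paired analysis was possible because a single array was run for either condition. Scaling each array to its median spot added the same amount to all genes, and the medians became 0.12 for all oxidative phosphorylation genes (0.05 as reported), 0.14 for complex I, 0.033 for its assembly factors (−0.04 as reported), 0.10 for complex II and 0.11 each for complexes III, IV and V. The same scaling gave 0.12 for electron carriers, 0.077 for other assembly factors, 0.13 for pyruvate dehydrogenase and the TCA cycle, 0.053 for biogenesis regulators, 0.10 for carriers and uncoupling proteins, 0.019 for restricted isoforms, 0.11 for the isoform pairs of complexes IV and V (0.04 as reported) and 0.12 for mitochondrial ribosomal proteins. The median of all genes was 0.01 as reported and 0.08 under this scaling. Being a shift common to all genes, it put above 0 the 14 oxidative phosphorylation genes that lay shallowest below it, among them Cox6a1 at 0.0092 and Uqcrq at 0.0075, and left each gene's distance to the others unchanged. The number of genes below 0 was 21 as reported, 7 with median scaling, 33 with quantile normalization and 37 after removing the lowess trend. The last 2 settings lowered the median of each complex and of the complex I assembly factors. Quantile normalization gave 0.046 for complex I, −0.052 for its assembly factors, 0.0041 for complex II, 0.034 for III, 0.024 for IV and 0.033 for V. Removing the lowess trend gave 0.044, −0.050, −0.0020, 0.012, 0.023 and 0.022 in the same order. Without a filter on dim probes 1 gene (Ndufa4l2, not above background) was at least 25% higher and restricted isoforms had a median of 0.039. Restricting to genes brighter than the median left 0 genes at least 20% lower. It also left Cox7a1 as the only restricted isoform, so the 0.10 given for that group is its value alone. At 1.1-fold, 11 genes were higher and 4 lower, where 17.3% and 17.2% of all genes were. The T cell marker median was −0.07, and 0.072 with the mean of all probes, which also gave −0.03 for macrophage markers (0.02 as reported), and normexp gave −0.04 for Cd79b (0.03 as reported). The excess over the median of all genes was 0.04 as reported, 0.03 with quantile normalization, 0.02 after lowess, 0.05 after normexp and 0.0092 without a filter on dim probes, where dim genes raised the median of all genes to 0.04. For 54 named genes under the alternatives, 27 of 486 values changed sign and 422 moved by less than the bright spot SD of 0.05, a limit as large as the median itself. Naming probes by the array's own gene names was not run.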
